A study of Mus musculus with 12 samples.

Results

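Chemokine, tumor necrosis factor (TNF) superfamily and interleukin ligand genes were examined in tongue-innervating trigeminal ganglion (TG) neurons. The members were all gene symbols made of Ccl, Cxcl or Tnfsf and a number, together with Il1a, Il1b, Il6, Il34, Csf1, Pf4, Cx3cl1 and Spp1. This rule used names only and found 56 of 22609 symbols, of which 24 were CC chemokines, 14 were CXC chemokines including Pf4, 1 was the CX3C chemokine, 11 were TNF superfamily ligands, 3 were interleukins, 2 were ligands of the CSF1 receptor and 1 was osteopontin (Spp1). The 12 libraries came from Balb/c athymic nude mice, aged 6 to 8 weeks, that lack a thymus and with it mature T lymphocytes. The groups were normal males (MN), males with a tongue tumor (MT), normal females (FN) and females with a tongue tumor (FT), with 3 libraries in each. Tumors were grown from 350000 HSC3 cells, which derive from a human squamous cell carcinoma of the mouth. The labels state that normal mice received no cells and the methods state that they received human oral keratinocytes, so which of these the tumor groups are compared with was not settled. In every group the tongue was injected on day 13 with fluorescent WGA (wheat germ agglutinin), which is taken up at nerve endings and transported to the cell body, and WGA-positive cells were sorted from the TGs on day 15. A normal library pooled 4 TGs of 2 mice, and a tumor library pooled the ipsilateral TGs of 4 mice.

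Chemokines are small secreted proteins that attract leukocytes through G protein-coupled receptors, and their families are named after the spacing of conserved cysteines. CC chemokines act mainly on monocytes, macrophages and eosinophils, and many CXC chemokines act on neutrophils or lymphocytes. In sensory ganglia, injured neurons can release CSF1, CCL2 and CX3CL1, resident macrophages and glia release IL-1β, IL-6 and further chemokines, and several of these ligands are known to sensitize nociceptors.

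Values are reads scaled to the library's total of reads on genes (CPM), and the level of 1 gene against another is given only per kilobase of exon (RPKM). Between 4592891 and 8922011 reads per library lay on genes. FN replicate 2, FT replicate 2 and FT replicate 3 stood apart from the rest: their highest Spearman correlations with the other 9 libraries, over genes, were 0.85, 0.811 and 0.908, whereas those 9 correlated with each other at 0.971 or more, and 56.0, 68.4 and 52.6% of their reads mapped to several places against 43.0 to 45.5%. Where a result rests on them, a value without one or all of them is given beside it. Without these libraries FT holds 1 library, whose spread is then assumed to be that of the other groups. As for the labelled cell type, all 10 sensory neuron markers had reads in every library, and they summed to 12138 to 22065 CPM. Single markers did not move together in FN replicate 2, FT replicate 2 and FT replicate 3. Trpv1 was at 11.4, 5.44 and 35.1 CPM there, against 150 to 263 CPM in the other 9 libraries. Tubb3 was at 4575.5, 1942.6 and 6006.2 CPM there, above the other 9 in FN replicate 2 and FT replicate 3 and below them in FT replicate 2. Markers of other cells were present as well, and those of macrophages and neutrophils are given beside the ligands below. In pooled samples of this kind, fewer cells of a type and less RNA per cell cannot be told apart.

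Of the 56 members, 40 had more than 3 reads in at least 1 library, 24 had a read in every library and 10 had none in any library. Those at 0 were Ccl19, Ccl20, Ccl21a, Ccl21b, Ccl21c, Ccl26, Ccl27b, Ccl28, Cxcl15 and Tnfsf4. For Ccl19, the 3 Ccl21 genes and Ccl27b no 50-base stretch of their exons occurs only once in mm9, and since reads that map to several places were not counted, their 0 does not bear on their expression. Ccl27a has 28.7% of such stretches unique and is likewise uncertain. The filter on low counts left 28 members to be tested, namely 10 CC and 7 CXC chemokines, Cx3cl1, 4 TNF ligands, 3 interleukins, both CSF1 receptor ligands and Spp1. The 28 others include 12 with more than 3 reads in some library, so the tested members are not the whole set.

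Per kilobase, Spp1 had the highest median level over the 12 libraries at 35.3 RPKM, followed by Cxcl12 at 25.4, Cx3cl1 at 10.2, Ccl2 at 10.0, Il34 at 9.89 and Cxcl1 at 8.66. Ccl4 and Tnfsf9 came next at 5.04 RPKM each, then Cxcl10 at 4.48, Csf1 at 4.16, Ccl7 at 4.08 and Il1b at 3.49. The ranges over libraries were wide enough for neighbors in this order to overlap, since Spp1 ran from 9.78 to 137 RPKM and Cxcl12 from 3.53 to 52.1. In CPM, the 5 members Cxcl12, Spp1, Cx3cl1, Csf1 and Il34 made up 69.5 to 91.0% of all member reads in 10 libraries and 51.4 and 43.2% in FN replicate 2 and FT replicate 2.

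**Figure D1:**
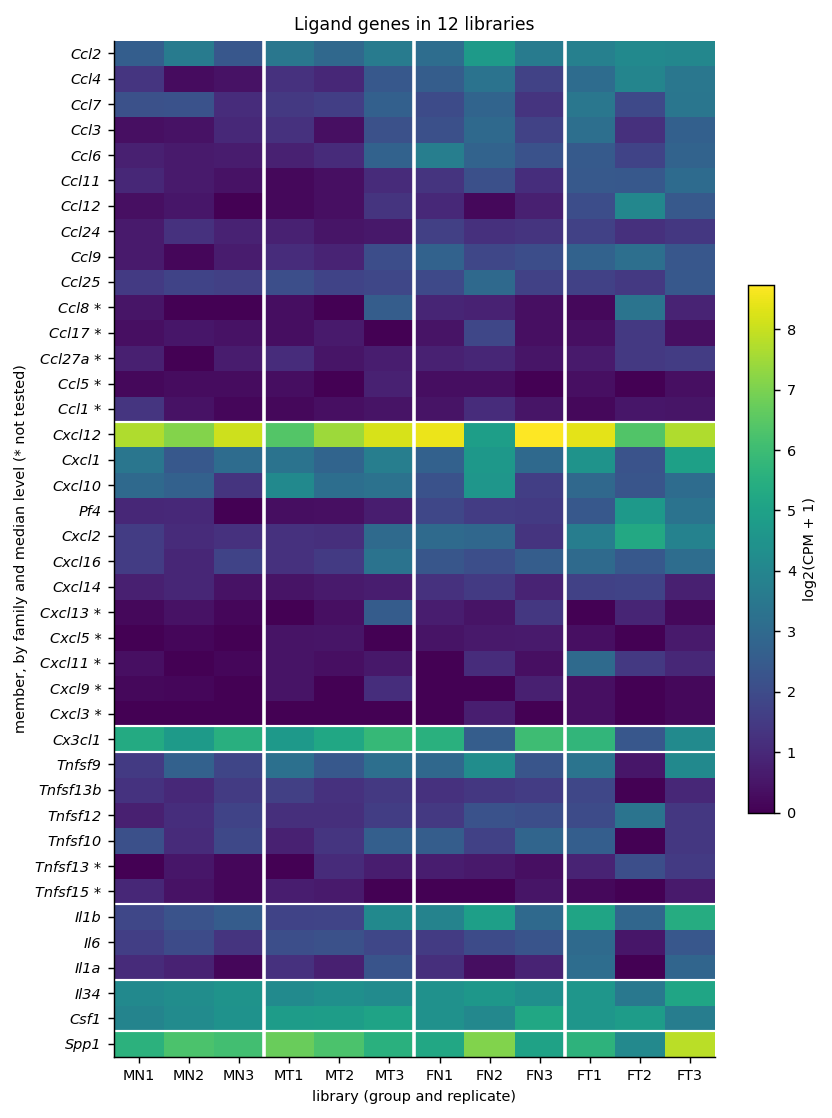
Level of the 40 members with more than 3 reads in at least 1 library, as log2(CPM + 1), in each of the 12 libraries (columns, by group), ordered by family and by median RPKM; an asterisk marks members that were not tested. Cxcl12, Spp1 and Cx3cl1 form the brightest rows, Cx3cl1 is dim in FN replicate 2 and FT replicate 2, and Ccl3, Ccl4, Ccl6 and Ccl9 are dim in MN and in MT replicates 1 and 2.

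In the comparison of normal mice (FN versus MN), 8 of 28 tested members met the unadjusted criteria of p under 0.05 and a fold over 1.5, all of them higher in FN: Ccl2, Ccl3, Ccl4, Ccl6, Ccl9, Ccl11, Cxcl2 and Il1b. Of all 13360 genes tested, 5.21% met the criteria as higher in FN and 0.359% as lower. The fitted difference was above 0 for all 28 members, with a median of 1.15 on the log2 scale against 0.07 over all genes, and over 9 libraries it was above 0 for 24 of the same 28 with a median of 0.71. Of the 8 members that met the criteria, Ccl2, Ccl11, Cxcl2 and Il1b no longer met the criteria with 9 libraries. No gene reached an adjusted p under 0.05 by edgeR over 12 libraries in any of the 5 comparisons. The lowest adjusted p of a member was 0.809 in FN versus MN. In that comparison DESeq2 gave 3 members (Ccl4, Ccl6 and Ccl9) and limma-voom with sample weights gave 6 (Ccl3, Ccl4, Ccl6, Ccl9, Il1b and Pf4) an adjusted p under 0.05, where 0.15% and 5.99% of all genes had one. FN and MN did not overlap, with FN higher, for 8 members (Ccl3, Ccl4, Ccl6, Ccl9, Ccl11, Cxcl16, Il1b and Pf4), beside 9.66% of all genes.

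The CC chemokines that stood out most lie together on chromosome 11. Ccl5, Ccl9, Ccl6, Ccl3 and Ccl4 occupy chr11:83339280-83478185 of mm9, a stretch of 139 kb. Ccl3 and Ccl4 encode MIP-1α and MIP-1β, which activated myeloid cells make, and Ccl6 and Ccl9 are rodent chemokines that act through CCR1. Ccl3 stood at 0.281, 0.336 and 1.03 CPM in MN, 1.38, 0.278 and 3.46 in MT, 3.39, 6.92 and 2.33 in FN and 8.09, 1.31 and 5.44 in FT. Ccl4 was found at 1.55, 0.224 and 0.344 CPM in MN, 1.38, 0.972 and 4.32 in MT, 5.03, 9.13 and 2.33 in FN and 7.54, 14.8 and 10.04 in FT. Both were low in MN and in MT replicates 1 and 2, and the FN values lay above all MN values. The difference FN minus MN on the log2 scale was 3.07 ± 0.89 (SE, edgeR adjusted p = 0.809) for Ccl3 and 3.18 ± 0.84 (SE, adjusted p = 0.809) for Ccl4. Ccl6 was measured at 0.703, 0.560 and 0.574 CPM in MN, 0.755, 1.11 and 5.68 in MT, 12.4, 5.87 and 3.56 in FN and 4.53, 2.40 and 5.86 in FT. Ccl9 was measured at 0.562, 0.112 and 0.574 CPM in MN, 1.13, 0.834 and 3.21 in MT, 5.66, 2.61 and 3.15 in FN and 5.76, 8.06 and 4.18 in FT. For these genes as well no FN library overlapped MN, and among the males MT replicate 3 stood above every other library. The FN minus MN difference was 3.63 ± 0.77 (SE, edgeR adjusted p = 0.809) for Ccl6, and over 9 libraries it was 3.64 ± 0.79 (SE, adjusted p = 0.0723). For Ccl9 the difference was 3.24 ± 0.71 (SE, edgeR adjusted p = 0.809), and over 9 libraries it was 3.34 ± 0.67 (SE, adjusted p = 0.0666). Ccl3, Ccl4, Ccl6 and Ccl9 kept an unadjusted p under 0.05 and a fold over 1.5 in this comparison under every alternative fitted. Ccl5, the remaining gene of the stretch, had at most 0.741 CPM in any library and was not tested.

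The fit of only FN replicates 1 and 3 against MN, added after the data were seen, gave adjusted p values by edgeR of 0.0411 for Ccl3, 0.0501 for Ccl4, 0.00247 for Ccl6, 0.00571 for Ccl9, 0.0286 for Il1b, 0.0171 for Cxcl12 and 0.0087 for Spp1, the last of these lower in FN. In that fit 5.53% of all genes passed the adjusted threshold.

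**Figure D2:**
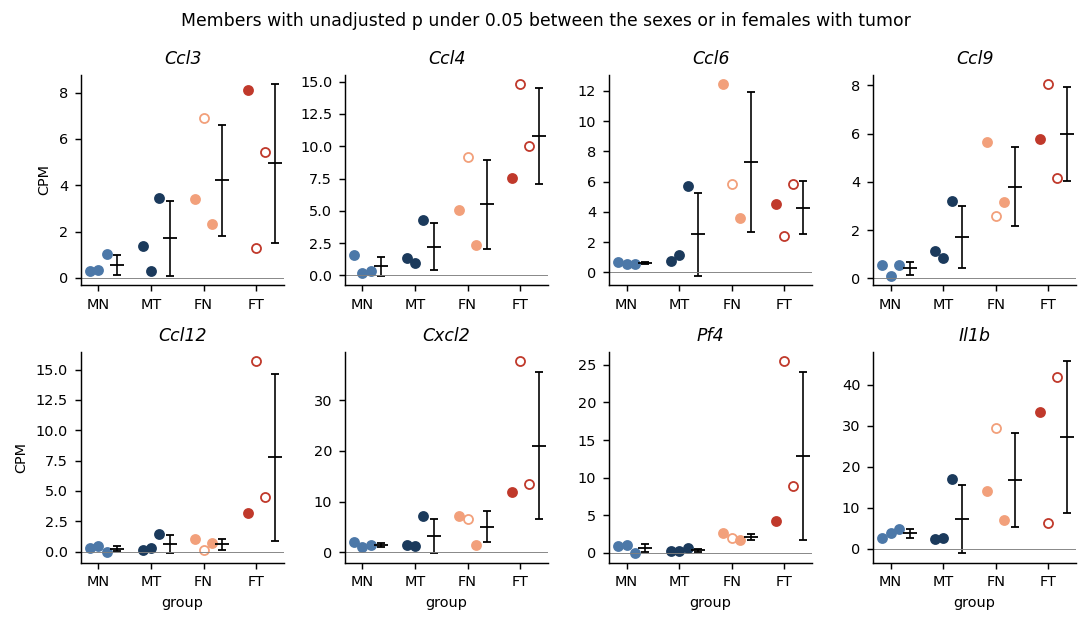
CPM of 8 members in each library, by group; points are libraries (replicates 1 to 3 from left to right), open points are FN replicate 2, FT replicate 2 and FT replicate 3, and the bar beside each group is the mean ± SD of 3 libraries. Ccl3, Ccl4, Ccl6 and Ccl9 are low in MN, whereas Ccl12, Cxcl2 and Pf4 are highest in the FT libraries.

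The second stretch, chr11:81849073-82119192, holds Ccl2, Ccl7, Ccl11, Ccl12, Ccl8 and Ccl1. Ccl2, Ccl7 and Ccl12 encode monocyte chemoattractants that signal through CCR2, and Ccl11 encodes eotaxin, which signals through CCR3. Ccl2 was present at 5.06, 11.5 and 4.13 CPM in MN, 10.1, 6.81 and 11.4 in MT, 7.67, 26.2 and 11.5 in FN and 12.9, 16.8 and 15.5 in FT. Every FT library lay above every MT and every MN library, and the values of the other pairs of groups overlapped. The FN minus MN difference in Ccl2 was 1.32 ± 0.56 (SE, edgeR adjusted p = 0.809) and rested on FN replicate 2, since without that library alone it was 0.42 and the criteria were not met. Ccl7 was present at 3.52, 3.59 and 1.15 CPM in MN, 1.76, 2.08 and 5.43 in MT, 3.02, 6.002 and 1.51 in FN and 10.2, 2.83 and 9.76 in FT, with the highest values in FT replicates 1 and 3. Ccl11 was low in males, at 0.984, 0.560 and 0.344 CPM in MN, 0.126, 0.278 and 1.11 in MT, 1.51, 3.39 and 1.23 in FN and 4.39, 4.35 and 7.39 in FT. Each FT library was above every FN library and each FN library above every MN library. Ccl11 passed the filter on low counts only with its FT libraries counted, so its comparisons with FT are not independent of that filter. The differences in Ccl11 were 1.87 ± 0.75 (SE, edgeR adjusted p = 0.809) in FN versus MN, which with 9 libraries came to 1.09 ± 0.73 (SE, adjusted p = 0.514) and no longer met the criteria, and 3.53 ± 0.77 (SE, adjusted p = 0.255) in FT versus MT. Ccl24, which shares CCR3 with Ccl11 and lies on chromosome 5, was at 0.562, 1.34 and 0.803 CPM in MN, 0.755, 0.417 and 0.494 in MT, 2.14, 1.30 and 1.51 in FN and 2.19, 1.31 and 1.67 in FT, and in FT versus MT it differed by 1.73 ± 0.60 (SE, edgeR adjusted p = 0.332).

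Ccl12 was higher in FT than in FN. It passed the filter on low counts only through its FT libraries, so its comparisons with FT are not independent of that filter. It was found at 0.281, 0.448 and 0 CPM in MN, 0.126, 0.278 and 1.48 in MT, 1.01, 0.130 and 0.685 in FN and 3.15, 15.7 and 4.46 in FT, so that every FT library lay above every other library of the study. In reads this was 23, 72 and 32 in FT against 8, 1 and 5 in FN. The FT minus FN difference was 3.89 ± 1.00 (SE, edgeR adjusted p = 0.994) with 12 libraries. With 9, where FT is replicate 1 alone, it was 1.88 ± 1.04 (SE) and no longer met the criteria.

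In females the comparison of tumor with normal (FT versus FN) gave 4 of 28 members that met the unadjusted criteria, all higher in FT: Ccl12, Cxcl2, Il1a and Pf4. Over all 13835 genes tested, 3.17% met them as higher and 0.643% as lower. All adjusted p values of members by edgeR were 0.994 or more. FT lay wholly above FN for Ccl11, Ccl12, Cxcl2 and Pf4, beside 1.22% of all genes, and for no member wholly below. Of the members named here, Ccl11, Ccl12 and Il1a passed the filter on low counts only with their FT libraries counted. Median differences were 0.40 for the 28 members and -0.06 for all genes.

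Among the CXC chemokines, Cxcl1 and Cxcl2 are close paralogs that recruit neutrophils through CXCR2, and they lie with Cxcl3, Cxcl5, Cxcl15 and Pf4 in chr5:91188325-91334935 of mm9. Cxcl2 was measured at 1.97, 1.12 and 1.38 CPM in MN, 1.38, 1.25 and 7.16 in MT, 7.17, 6.52 and 1.51 in FN and 11.9, 37.7 and 13.5 in FT. The 3 FT libraries were above all others, MT replicate 3 was the highest male library, and the FT minus FN difference was 2.19 ± 0.77 (SE, edgeR adjusted p = 0.994). Without FT replicate 2 alone that difference was 1.23 and with 9 libraries it was 1.45 ± 0.86 (SE, edgeR adjusted p = 0.997), and neither met the criteria. In FT versus MT the Cxcl2 difference was 2.96 ± 0.79 (SE, edgeR adjusted p = 0.321), and it kept the unadjusted criteria under every alternative. Cxcl1 had another pattern, at 9.70, 4.26 and 7.46 CPM in MN, 9.06, 6.11 and 12.2 in MT, 5.53, 24.5 and 6.85 in FN and 21.4, 3.70 and 30.1 in FT. FN replicate 2, FT replicate 1 and FT replicate 3 held the high values of Cxcl1 while FT replicate 2 held the lowest. The FT minus FN difference in Cxcl1 was 0.44 ± 0.69 (SE, edgeR adjusted p = 0.994) with 12 libraries and 1.80 ± 0.44 (SE, adjusted p = 0.997) with 9, where FT is replicate 1 alone. Cxcl3, a further paralog, had at most 5 reads in any library.

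Pf4 encodes platelet factor 4, a product of megakaryocytes and platelets that macrophages express as well. Pf4 was measured at 0.984, 1.01 and 0 CPM in MN, 0.252, 0.278 and 0.617 in MT, 2.64, 1.96 and 1.78 in FN and 4.25, 25.5 and 8.92 in FT. The FT libraries were above the FN libraries, which were above both male groups. In FT versus MT its difference was the largest of any member at 5.30 ± 0.98 (SE, edgeR adjusted p = 0.255), with an adjusted p of 0.255 by edgeR, and with 9 libraries it was 3.35 ± 0.92 (SE, adjusted p = 0.406). In FT versus FN it was 2.79 ± 0.83 (SE, edgeR adjusted p = 0.994), and without FT replicate 2 alone it was 1.59 and with 9 libraries 0.94 ± 0.89 (SE, adjusted p = 0.997), and neither met the criteria. Of the 4 platelet markers, Gp9 had at most 0.126 CPM and Ppbp at most 0.247 CPM, whereas Gp1bb stood at 2.77 to 7.84 CPM and Itga2b at 2.11 to 4.03 CPM in every library. Their sum was 6.66 to 9.75 CPM in the other libraries and 11.8 CPM in FT replicate 2, where Pf4 was highest, and their part in the Pf4 difference was not tested.

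Because Cxcl1, Cxcl2 and Cxcl10 are textbook targets of NF-κB, the sequences just before the start sites of these and of 3 more members discussed here, Ccl9, Il1b and Csf1, were searched for short motifs. The 250 bases before the start are from RefSeq on GRCm38.p6, a later build than mm9, and 40 of the 56 members matched the table by symbol, with 48 start sites. Capitals mark matches to κB (GGGA and CC with any 4 bases between), AP-1 (TGANTCA) and the interferon-stimulated response element (GAAA and GAAA with any 2 bases between) on either strand, and to the TATA box (TATAAA) on the gene's own strand, with neighboring or overlapping matches run together. Each sequence reads 5′ to 3′ on the gene's strand and ends just before the start.
Cxcl1 (chr5:90890995-90891244, plus strand): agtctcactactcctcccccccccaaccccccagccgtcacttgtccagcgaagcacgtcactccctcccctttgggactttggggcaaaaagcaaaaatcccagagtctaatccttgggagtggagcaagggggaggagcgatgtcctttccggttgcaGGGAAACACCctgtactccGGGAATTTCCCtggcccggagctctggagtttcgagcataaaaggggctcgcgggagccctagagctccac
Cxcl2 (chr5:90903649-90903898, plus strand): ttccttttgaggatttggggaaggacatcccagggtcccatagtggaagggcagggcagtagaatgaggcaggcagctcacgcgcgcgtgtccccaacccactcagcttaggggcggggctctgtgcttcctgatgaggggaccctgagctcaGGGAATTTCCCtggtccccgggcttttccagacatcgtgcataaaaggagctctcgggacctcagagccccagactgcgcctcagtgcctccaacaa
Cxcl10 (chr5:92348890-92349139, minus strand): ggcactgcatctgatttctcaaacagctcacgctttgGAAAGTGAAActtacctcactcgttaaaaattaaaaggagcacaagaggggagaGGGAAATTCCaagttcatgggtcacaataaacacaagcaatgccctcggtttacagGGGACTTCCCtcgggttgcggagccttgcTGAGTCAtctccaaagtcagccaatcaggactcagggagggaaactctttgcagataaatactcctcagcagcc
Ccl9 (chr11:83578637-83578886, minus strand): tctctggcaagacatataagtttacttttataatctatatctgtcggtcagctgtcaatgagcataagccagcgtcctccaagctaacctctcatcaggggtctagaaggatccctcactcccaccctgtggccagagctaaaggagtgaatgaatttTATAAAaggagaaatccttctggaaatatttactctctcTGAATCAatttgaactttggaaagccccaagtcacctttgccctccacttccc
Il1b (chr2:129371140-129371389, minus strand): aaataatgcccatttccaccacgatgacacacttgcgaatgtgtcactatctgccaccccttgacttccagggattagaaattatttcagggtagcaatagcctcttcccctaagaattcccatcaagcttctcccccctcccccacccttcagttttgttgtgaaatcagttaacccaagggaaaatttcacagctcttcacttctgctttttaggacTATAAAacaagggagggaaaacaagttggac
Csf1 (chr3:107760470-107760719, minus strand): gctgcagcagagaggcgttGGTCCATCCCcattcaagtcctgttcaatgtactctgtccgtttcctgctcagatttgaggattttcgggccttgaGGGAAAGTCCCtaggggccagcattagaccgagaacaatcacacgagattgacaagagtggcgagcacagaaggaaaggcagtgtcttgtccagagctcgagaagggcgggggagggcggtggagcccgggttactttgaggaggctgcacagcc
Cxcl1 and Cxcl2 share the run GGGAATTTCCC, which reads as κB on both strands and begins 71 bases before the start in Cxcl1 and 97 bases before it in Cxcl2. Cxcl10 holds 2 κB matches, 1 AP-1 match and 1 interferon response element. Ccl9 holds AP-1 and TATA matches, Il1b holds a TATA box that begins 31 bases before its start, and Csf1 holds κB matches. κB occurred in 17.6% of all 32851 start sites and in 35.4% of the members', AP-1 in 6.75% and 18.8%, the interferon element in 2.98% and 10.4%, and TATA in 7.59% and 27.1%. These are letter matches in a short window and were not tested.

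Cxcl10, an interferon-induced ligand of CXCR3, was at 6.89, 5.49 and 1.49 CPM in MN, 16.6, 7.92 and 8.77 in MT, 3.65, 23.4 and 2.05 in FN and 6.72, 3.92 and 7.53 in FT. Every MT library was above every MN library, and the MT minus MN difference was 1.29 ± 0.82 (SE, edgeR adjusted p = 1) with 12 libraries and 1.30 ± 0.47 (SE, adjusted p = 0.613) with 9. FN replicate 2 held the highest value of all, so the FT minus FN difference was -0.81 ± 0.82 (SE, edgeR adjusted p = 0.994) with 12 libraries and 1.23 ± 0.73 (SE, adjusted p = 0.997) with 9, opposite in sign. All FT values were below all MT values. The exons of Cxcl10 overlap those of Art3 on the other strand, and the counting strand is not given in the sources used here, so reads of the pair cannot be told apart. The partners of Cxcl10 at CXCR3 were low, since Cxcl9 had at most 1.23 CPM and Cxcl11 exceeded 2 CPM only in FT replicate 1, at 7.13 CPM. Cxcr3 itself had no read in any library.

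Cxcl12 encodes SDF-1, a ligand of CXCR4 that stromal and endothelial cells make at steady state. It was measured at 207, 138 and 271 CPM in MN, 83.4, 175 and 295 in MT, 354, 28.8 and 426 in FN and 333, 81.00 and 208 in FT. Cxcl12 was lowest in FN replicate 2 and FT replicate 2 along with MT replicate 1, and highest in FN replicates 1 and 3. With 12 libraries Cxcl12 met the criteria in no comparison by edgeR, although it did by limma-voom in FN versus MN, where the difference was 0.38 ± 0.68 (SE, edgeR adjusted p = 0.875) with 12 libraries and 0.88 ± 0.37 (SE, adjusted p = 0.284) with 9. Cx3cl1, fractalkine, is a membrane-bound chemokine of neurons whose receptor CX3CR1 is found on macrophages. Its values were 39.6, 26.00 and 44.2 CPM in MN, 25.7, 36.3 and 56.8 in MT, 46.3, 4.96 and 63.97 in FN and 52.4, 4.14 and 17.2 in FT. The low ones were in the 3 libraries that stood apart, and among the other 9 Cx3cl1 ran from 25.7 to 64.0 CPM with overlap of all groups that hold more than 1 library except FN and MN. Cxcl14, at 0.703, 0.897 and 0.344 CPM in MN, 0.377, 0.556 and 0.617 in MT, 1.38, 1.83 and 0.822 in FN and 2.19, 2.40 and 0.697 in FT, met the unadjusted criteria in FT versus MT with 1.89 ± 0.72 (SE, edgeR adjusted p = 0.347), although no library exceeded 2.4 CPM. It did not meet them by limma-voom or without MT replicate 1, FT replicate 1 or FT replicate 2. Cxcl14 passed the filter on low counts only with its FT libraries counted, so this comparison is not independent of that filter.

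**Figure D3:**
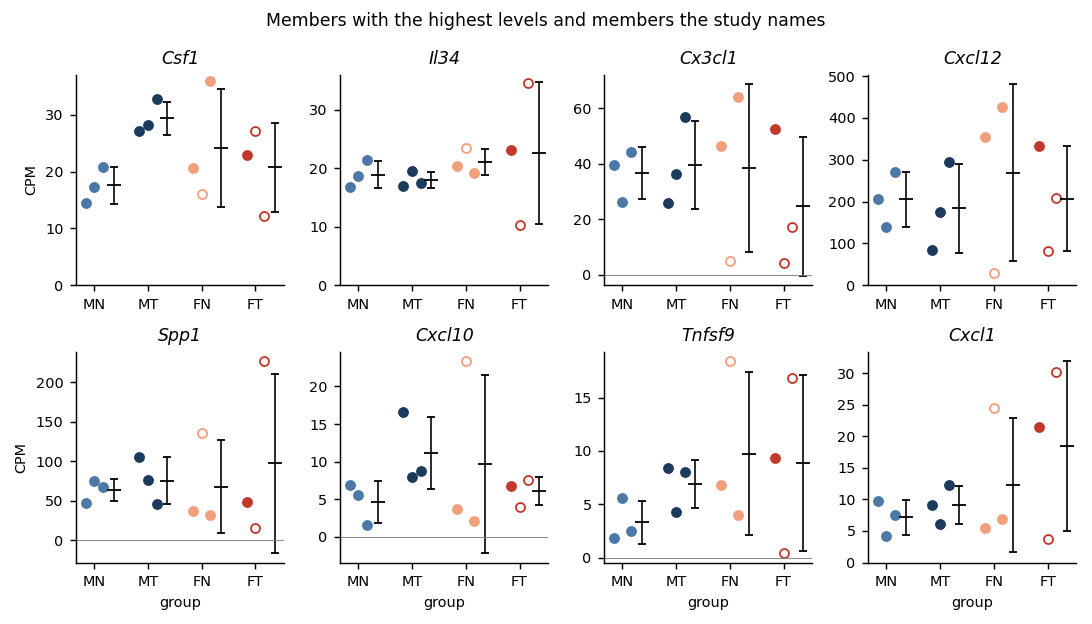
CPM of 8 further members in each library, by group, drawn as in the plot of Ccl3 to Il1b, with open points for FN replicate 2, FT replicate 2 and FT replicate 3 and bars for the mean ± SD of 3 libraries. Csf1 is higher in all 3 MT libraries than in all 3 MN libraries, and Il34 spreads most widely in FT. Cx3cl1 is low in the open points, and Cxcl12 is lowest in FN replicate 2, FT replicate 2 and MT replicate 1.

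In males with tumor against normal males (MT versus MN), 2 of 28 members met the unadjusted criteria, Ccl6 and Ccl9, beside 0.347% of all genes that met them as higher and 0.0795% as lower, and every adjusted p of a member was 1 by edgeR. The median difference of the 28 members was 0.42 and that of all genes 0.01. Neither held without MT replicate 3 or without MN replicate 2. Ccl6 also missed the criteria without MN replicate 3, at 1.96, and by limma-voom, at 1.09. The Ccl6 difference was 2.01 ± 0.76 (SE, edgeR adjusted p = 1) and without MT replicate 3 it was 0.64 and without MN replicate 2 1.96, and the Ccl9 difference was 2.04 ± 0.72 (SE, adjusted p = 1) and without these 1.28 and 1.59. MT lay wholly above MN for 5 members, Ccl6, Ccl9, Ccl25, Cxcl10 and Csf1, where 5.8% of all genes did so, and wholly below for none.

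Csf1 and Il34 encode the ligands of the CSF1 receptor, on which macrophages and microglia depend for survival. Csf1, which sensory neurons induce after axon injury, was at 14.5, 17.4 and 20.9 CPM in MN, 27.2, 28.2 and 32.7 in MT, 20.6, 16.05 and 35.9 in FN and 22.9, 27.2 and 12.1 in FT. MT replicates 1 to 3 lay between 27.2 and 32.7 CPM and all MN libraries between 14.5 and 20.9, while the female groups overlapped each other. The group means were 17.6 ± 3.2 CPM in MN and 29.4 ± 3.0 CPM in MT (SD of 3 libraries). The MT minus MN difference was 0.76 ± 0.40 (SE, edgeR adjusted p = 1) with 12 libraries and 0.75 ± 0.20 (SE, adjusted p = 0.343) with 9, with an adjusted p of 0.343 by edgeR in the latter. Over all alternatives fitted it ran from 0.63 to 0.89. In females the Csf1 difference between tumor and normal was -0.07 ± 0.40 (SE, edgeR adjusted p = 0.994), and the difference between the sexes in the tumor effect was -0.83 ± 0.56 (SE, adjusted p = 1) with 12 libraries and -1.04 ± 0.37 (SE, adjusted p = 0.934) with 9. Il34 was measured at 16.9, 18.6 and 21.3 CPM in MN, 16.98, 19.6 and 17.4 in MT, 20.4, 23.5 and 19.2 in FN and 23.05, 10.2 and 34.6 in FT. FT replicate 2 was the lowest and FT replicate 3 the highest of all libraries, and in MT versus MN its difference was -0.06 ± 0.38 (SE, edgeR adjusted p = 1). Their receptor, Csf1r, was at 6.61, 3.14 and 2.30 CPM in MN, 1.01, 2.22 and 28.03 in MT, 69.1, 1.96 and 26.6 in FN and 45.5, 6.31 and 7.67 in FT.

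Among the TNF superfamily ligands, Tnfsf9 encodes 4-1BB ligand, a costimulator of lymphocytes. Tnfsf9 was found at 1.83, 5.60 and 2.52 CPM in MN, 8.43, 4.31 and 8.03 in MT, 6.79, 18.4 and 3.97 in FN and 9.33, 0.435 and 16.9 in FT. MT overlapped MN, because MN replicate 2 lay above MT replicate 2, and the difference was 1.06 ± 0.85 (SE, edgeR adjusted p = 1) with 12 libraries and 1.05 ± 0.42 (SE, adjusted p = 0.652) with 9. FN replicate 2 and FT replicate 3 held the highest levels of Tnfsf9 and FT replicate 2 the lowest, and its receptor gene Tnfrsf9 had at most 0.377 CPM in any library. Tnfsf12, which encodes TWEAK, was at 0.703, 1.23 and 2.41 CPM in MN, 1.26, 1.25 and 1.98 in MT, 1.76, 3.65 and 3.29 in FN and 3.02, 9.36 and 1.67 in FT. In FT versus MT it differed by 1.88 ± 0.74 (SE, edgeR adjusted p = 0.347), which rested on FT replicate 2, since without that library it was 0.65 and did not meet the criteria. Exons of Tnfsf12 overlap a read-through gene on the same strand. Tnfsf10 and Tnfsf13b met the criteria in no comparison over 12 libraries by edgeR, although Tnfsf10 did in FN versus MN by limma-voom, and the 7 other TNF ligands were not tested.

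Il1a and Il1b, which encode the 2 agonists of the IL-1 receptor, lie 71.5 kb from end to end on chromosome 2. Il1b was measured at 2.67, 3.70 and 4.82 CPM in MN, 2.39, 2.50 and 16.9 in MT, 14.1, 29.4 and 6.99 in FN and 33.5, 6.31 and 41.8 in FT. Every FN library was above every MN library, and FN replicate 2, FT replicate 1 and FT replicate 3 were the highest. The Il1b difference was 2.37 ± 0.82 (SE, edgeR adjusted p = 0.809) in FN versus MN, where with 9 libraries it was 1.44 ± 0.67 (SE, adjusted p = 0.338) and missed the criteria, and 2.01 ± 0.80 (SE, adjusted p = 0.351) in FT versus MT. Exons of Il1a, Il1b and Il34 overlap predicted genes on the other strand, so that reads of each pair cannot be told apart. Il1a was measured at 1.12, 0.785 and 0.115 CPM in MN, 1.38, 0.695 and 3.83 in MT, 1.26, 0.261 and 0.822 in FN and 7.68, 0 and 6.14 in FT. Il1a passed the filter on low counts only with its FT libraries counted, so its comparisons with FT are not independent of that filter. FT replicates 1 and 3 held its highest values, FT replicate 2 had no read, and the FT minus FN difference was 2.57 ± 1.04 (SE, edgeR adjusted p = 0.994). It met the criteria with 9 libraries but not by limma-voom, at 2.18, nor without FN replicate 2, at 2.25, FN replicate 3, at 2.56, FT replicate 1, at 2.10, or FT replicate 3, at 2.28. Il6, which encodes interleukin-6, was at 2.11, 3.03 and 1.49 CPM in MN, 3.27, 3.47 and 2.59 in MT, 1.89, 3.001 and 3.84 in FN and 7.13, 0.435 and 4.18 in FT.

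Spp1 encodes osteopontin, a secreted matrix protein that sensory neurons and macrophages produce and that binds CD44 and integrins. It was found at 47.7, 74.9 and 67.4 CPM in MN, 106, 75.99 and 45.7 in MT, 36.8, 135 and 31.8 in FN and 49.1, 16.1 and 227 in FT. The 2 highest libraries were FT replicate 3 and FN replicate 2, and the lowest was FT replicate 2. In FN versus MN the difference was 0.34 ± 0.78 (SE, edgeR adjusted p = 0.897) with 12 libraries, and without FN replicate 2 and the other libraries that stood apart it was -0.94 ± 0.31 (SE, adjusted p = 0.188), with FN replicates 1 and 3 below all MN libraries.

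In the comparison of the sexes with tumor (FT versus MT), 10 of 28 members met the unadjusted criteria, all higher in FT: Ccl4, Ccl9, Ccl11, Ccl12, Ccl24, Cxcl2, Cxcl14, Pf4, Tnfsf12 and Il1b. Of all genes, 9.96% met them as higher and 2.09% as lower. The lowest adjusted p of a member was 0.255 by edgeR, whereas DESeq2 gave 5 members (Ccl4, Ccl11, Ccl12, Cxcl2 and Pf4) and 1.84% of all genes an adjusted p under 0.05. FT lay wholly above MT for 9 members, beside 8.03% of all genes, and wholly below for Cxcl10 alone, beside 9.61%. Ccl4, Ccl9, Ccl11, Ccl12, Cxcl2 and Pf4 kept the unadjusted criteria under every alternative fitted. Of the 10 members, Ccl11, Ccl12 and Cxcl14 passed the filter on low counts only with their FT libraries counted. The Ccl4 difference was 2.49 ± 0.77 (SE, edgeR adjusted p = 0.321), the Ccl9 difference was 1.99 ± 0.63 (SE, adjusted p = 0.322) and the Ccl12 difference was 3.87 ± 1.00 (SE, adjusted p = 0.321). The median difference of the members was 1.00 and that of all genes 0.07. Each of these comparisons shares libraries with the others, so they are not independent of one another.

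**Figure D4:**
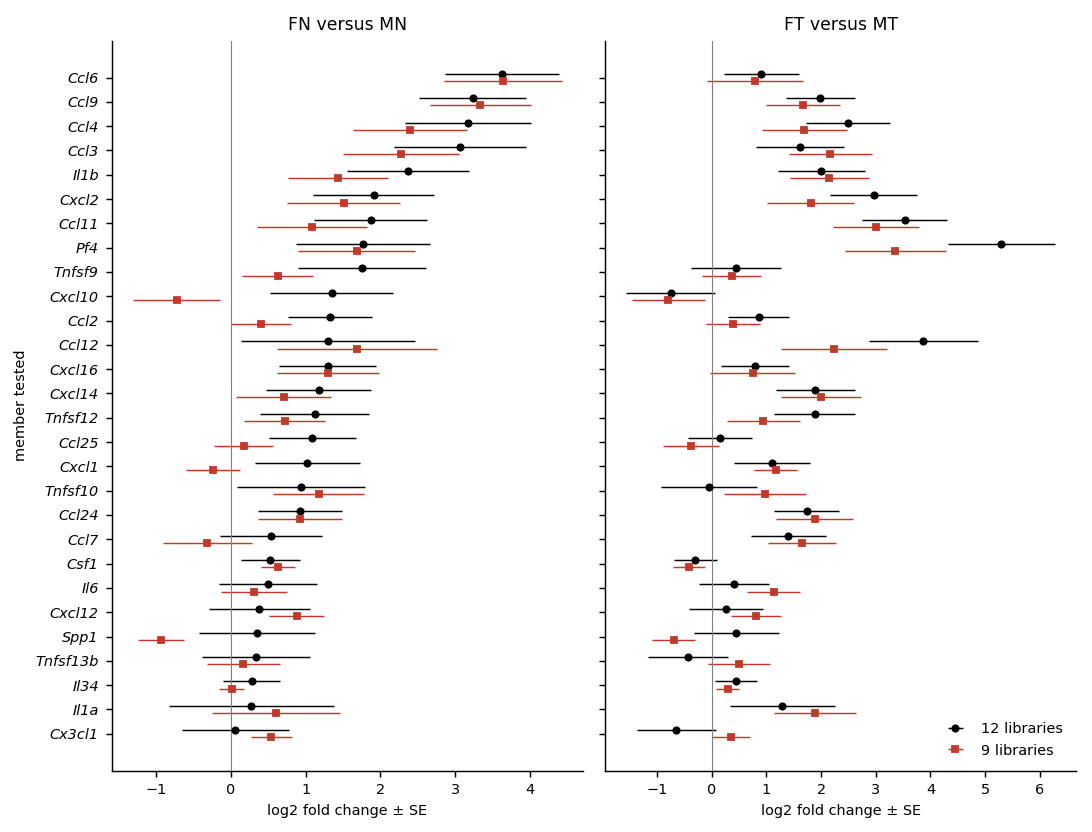
Log2 fold change ± SE of the 28 tested members in FN versus MN (left) and FT versus MT (right), with all 12 libraries (black circles) and with 9 libraries (red squares), by edgeR. All 28 black circles on the left lie above 0, Cxcl10 and Spp1 lie below 0 on the left with 9 libraries, and Pf4 is farthest to the right in FT versus MT.

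The change with tumor differed between females and males by the unadjusted criteria for Ccl6, at -2.72 ± 1.01 (SE, edgeR adjusted p = 1), and for Pf4, at 3.53 ± 1.32 (SE, adjusted p = 1), beside 1.47% of all genes, with adjusted p values of 1 by edgeR. For Ccl6 the tumor group was higher in males by 2.01 and lower in females by a difference of -0.71. For Pf4 it was lower in males by a difference of -0.74 and higher in females by 2.79. Without MT replicate 3 alone the Ccl6 value was -1.35, and without FT replicate 2 alone the Pf4 value was 2.33, and neither then met the criteria.

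Macrophage markers and the CC chemokines were both lower in MN and in MT replicates 1 and 2 than in the other libraries. The 14 markers summed to 25.1 to 39.1 CPM in MN, 19.7 and 23.1 CPM in MT replicates 1 and 2, 243 CPM in MT replicate 3, 181 to 418 CPM in FN and 202 to 483 CPM in FT, with reads for 12 to 14 of them in every library. In FN versus MN 12 of these 14 met the unadjusted criteria as higher, beside 5.21% of all genes, with a median difference of 3.03. The 24 CC chemokines together stood at 12.4 to 22.1 CPM in MN, 22.8 and 16.7 in MT replicates 1 and 2, 45.9 in MT replicate 3, 31.5 to 74.2 in FN and 62.3 to 82.5 in FT. The 10 neutrophil markers, in the same order, summed to 1.55 to 25.2, 6.54 and 31.7, 28.5, 18.9 to 76.7 and 71.1 to 194 CPM, and of the 5 T cell markers Cd3e and Cd3g had no read in any library, Cd3d and Cd8a had at most 0.274 and 0.139 CPM, and Cd4 reached 3.70 CPM in FT replicate 2 and at most 0.494 CPM elsewhere. The satellite glia markers, at 8 genes, were also higher in females, with 4153 to 4971 CPM in MN, 3538 to 4955 in MT, 8174 to 16454 in FN and 6616 to 17930 in FT. The part of these cells in the ligand differences was not tested. Within the females the order of libraries differed between the sums, since FT replicate 2 had the highest CC chemokine sum, 82.5 CPM, with 202 CPM of macrophage markers, and FN replicate 1 had 47.5 CPM with 418 CPM. Csf1 was at 27.2 and 28.2 CPM in MT replicates 1 and 2, which had the lowest marker sums, and at 32.7 CPM in MT replicate 3, which had the highest of the males.

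**Figure D5:**
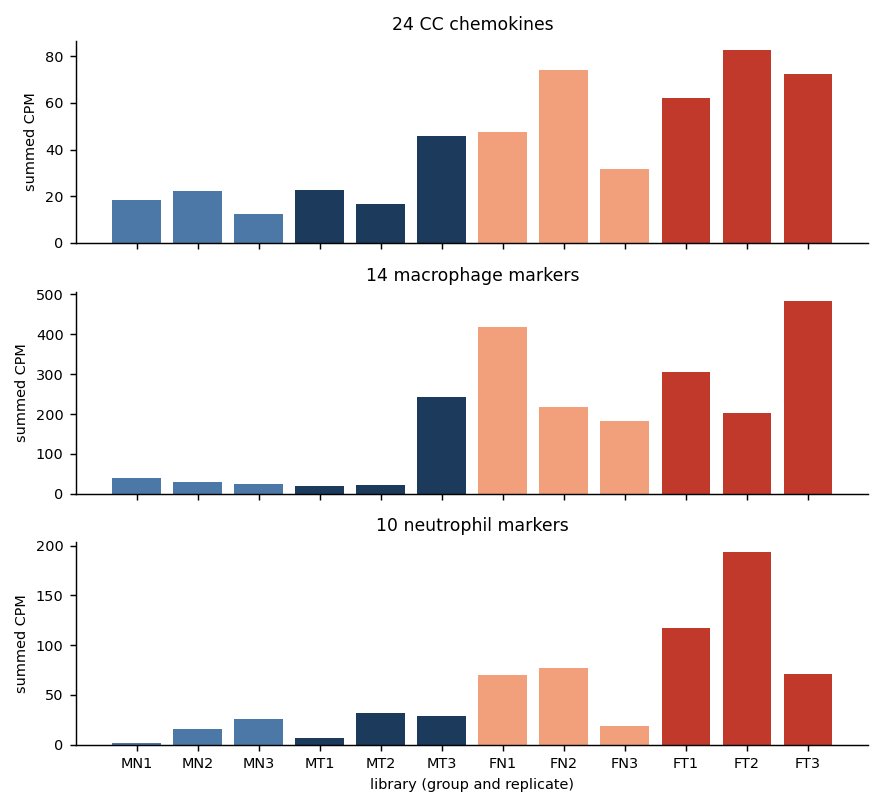
Summed CPM of the 24 CC chemokines (top), of 14 macrophage markers (middle) and of 10 neutrophil markers (bottom) in each library, colored by group. The 3 MN libraries and MT replicates 1 and 2 are lowest for CC chemokines and macrophage markers, and MT replicate 3 stands with the female libraries in both.

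Receptors of these ligands were compared from fixed lists. Of 24 chemokine receptors and decoy receptors 11 were tested, and in FN versus MN 2 met the unadjusted criteria as higher (Ccrl2 and Cx3cr1) and 1 as lower (Ccbp2), beside 5.21% and 0.359% of all genes. The median difference of the 11 receptors in FN versus MN was 0.51 with 12 libraries and 0.96 with 9, against 0.07 and 0.002 over all genes. Cx3cr1, which marks macrophages that respond to fractalkine, was at 0.844, 0.785 and 1.26 CPM in MN, 0, 0.834 and 5.56 in MT, 13.95, 0.130 and 8.36 in FN and 12.9, 8.93 and 7.11 in FT. FN replicate 2 was the exception among the females with 0.13 CPM. Of further macrophage markers, Csf1r, Cd163, Mrc1, Emr1 and Ptprc were likewise lower in FN replicate 2 than in the other FN libraries, C1qa, C1qb, C1qc, Lyz2, Cd68 and Tyrobp lay between them, and Aif1 and Fcgr3 lay above them. In MT versus MN Ccrl2, a receptor-like protein that binds chemerin, was the 1 receptor that met the criteria, beside 0.347% of all genes as higher. Ccrl2 was at 7.73, 3.59 and 5.28 CPM in MN and 6.04, 8.47 and 26.8 in MT. The groups overlapped, and MT replicate 3 was the highest of the males. Cxcr7, the scavenger receptor for CXCL12, was the 1 that met them in FT versus FN and in FT versus MT, beside 3.17% and 9.96% of all genes as higher. Its highest level was in FT replicate 2 at 27.2 CPM. With 9 libraries its difference was -0.08 in FT versus FN and 0.83 in FT versus MT, and neither met the criteria. Of 12 TNF receptor genes tested 1 met them in any comparison over 12 libraries, Tnfrsf13c as higher in FT versus FN, beside 3.17% of all genes. With 9 libraries Tnfrsf13c did not. Of 12 receptors of the other members, Csf1r was the 1 that met them in FN versus MN and Itgb3, Itgb5 and Ptprz1 met them as higher in FT versus MT, beside 9.96% of all genes, Itgb5 not with 9 libraries. Among 14 tested cytokines outside the rule, Il15 was higher and Csf3 lower in FN versus MN by the same criteria, beside 5.21% and 0.359% of all genes. Mif met them as higher in FT versus MT, beside 9.96% of all genes. The Mif difference was 2.30 with 12 libraries and 0.05 with 9, with 623 CPM in FT replicate 2.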

How the data were processed

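RNA of WGA-positive trigeminal neurons was sequenced in 12 libraries, 3 in each of MN, MT, FN and FT, with groups taken from the sample labels. Libraries were made by SMART-seq2, and the authors aligned single reads of 50 bases to mm9 with TopHat2 and counted them on genes with HTSeq; CASAVA 1.8.2 and SAMtools are named in the submitters' processing notes. Versions of the other tools, the annotation and the strand setting are not given in the sources used here. The deposited values are whole read counts per gene symbol, without normalization. Rows that name no gene took 76.3 to 88.8% of the reads of a library and entered neither library sizes nor tests. CPM used reads on genes, and RPKM used exon lengths of GENCODE M1 on mm9.

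The fit of the counts was by edgeR 4.0.16, run in R 4.3.3 (TMM, filterByExpr with minimum count 10 and minimum total count 15, quasi-likelihood test, two-sided) as 4 group means over 12 libraries, with adjustment by Benjamini-Hochberg over 13835 genes, or 13360 without X and Y where females were compared with males. The criteria were an unadjusted p under 0.05 and a fold over 1.5. Where nothing says that libraries came from separate sorts, p values measure the spread between these libraries. Alternatives were DESeq2 1.42.0, edgeR scaled by DESeq2's size factors, limma-voom (limma 3.58.1) with sample quality weights, no filter, a block for the replicate number, fits of the 2 groups compared, fits of 9 libraries (leaving out the 3 that stood apart) and of 10 (leaving out FN replicate 2 and FT replicate 2 alone) and fits that left out 1 library; a fit of FN replicates 1 and 3 against MN and one of 8 libraries (the 9 without MT replicate 3) were added after the data were seen. The tests were run on simulated data, where recovery of changed genes was required only at a spread well below that of these libraries. That check does not show how the tests perform at the real spread. Members given library by library are those that met the criteria in any comparison, those the study names, the 8 with the highest median RPKM, and their partners at the same receptor. The members and the gene lists were chosen with earlier results of these data known. Unique 50-base stretches and motifs were found with Python 3.11.15 and numpy 2.4.6.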

Additional observations from a re-analysis of the deposited data

Results flagged for a closer look

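Ccl6 and Pf4 are listed because the effect of the tumor differed between the sexes at an unadjusted p under 0.05. The difference, females minus males, was -2.72 ± 1.01 (SE, edgeR adjusted p = 1) for Ccl6 and 3.53 ± 1.32 (SE, adjusted p = 1) for Pf4 on the log2 scale. Groups of 3 libraries are too small for a search for outliers.

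These members, which had too few reads for a test, were chosen after their values were seen and had signal in single tumor libraries above every normal library. Ccl8, which encodes MCP-2, was at 4.94 CPM in MT replicate 3 (40 reads) and 9.36 CPM in FT replicate 2 (43 reads), against at most 0.88 CPM in the normal libraries. Cxcl11, whose exons overlap Gm2673 on the other strand, was at 7.13 CPM in FT replicate 1 (52 reads), against at most 1.17 CPM in the normal libraries. Cxcl13, a B cell chemoattractant, was at 4.82 CPM in MT replicate 3 (39 reads), against at most 1.64 CPM in the normal libraries. None of these was shared by all 3 libraries of a group.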

How the results depend on the processing

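With 4592891 to 8922011 reads on genes per library, 28 of 56 members did not pass the filter, 10 of them without a read, and Ccl3, Ccl4, Ccl6, Ccl9, Ccl11 and Ccl12 each had 11 reads or fewer in every MN library. The numbers of members that met the unadjusted criteria were 8, 2, 4, 10 and 2 in the normal mice (FN versus MN), in males (MT versus MN), in females (FT versus FN), with tumor (FT versus MT) and for the difference between the sexes. They came to 14 and 5 in the first 2 of these and 4 in the last with limma-voom, to 9 and 6 in MT versus MN and the difference between the sexes with 9 libraries, to 4, 8, 13, 16 and 7 with 10 libraries, and to 13, 4, 11, 20 and 6 with 8 libraries. In MT versus MN they were 5 without the filter and 4 with the 2 groups compared alone. With a mean RPKM over 5 as well they were 4 in FN versus MN, 0 in MT versus MN, 5 in FT versus MT and 1 in the difference between the sexes. Leaving out 1 library gave 4 to 11, 0 to 7, 2 to 8, 9 to 15 and 1 to 4 members. In FN versus MN the count was 5 without MN replicate 3 and 4 without FN replicate 2. In MT versus MN it was 0 without MT replicate 3 or MN replicate 2, 4 without MN replicate 1, FN replicate 2, FT replicate 1 or FT replicate 2, 5 without MT replicate 1 and 7 without MT replicate 2. In FT versus FN it was 8 without FN replicate 2 and 2 without FT replicate 2, and for the difference between the sexes 1 without MN replicate 2 and 4 without MT replicate 3 or FN replicate 2. The shares of all genes that met the unadjusted criteria are not given here for these alternatives. The counts therefore do not show whether members met the criteria more often than other genes.

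With an adjusted p under 0.05 there was no member over 12 libraries by edgeR. In FN versus MN there were 3 by DESeq2, 6 by limma-voom and 6 in the fit of FN replicates 1 and 3 against MN, beside 0.15%, 5.99% and 5.53% of all genes. In FT versus MT there were 5 by DESeq2, beside 1.84% of all genes. There were 0 to 4 when 1 library was left out, the 4 without FT replicate 1, and the share of all genes in that fit is not given here. The cause was not tested. The groups of FN and MN did not overlap for 8 members, and for 14 without FN replicate 2, where 23.2% and 13.9% of all genes were wholly higher or wholly lower.

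Of 35 fold changes given, 29 kept their sign under all alternatives. Spp1 in FN versus MN turned to -0.87 with limma-voom, -0.94 with 9, 10 and 8 libraries and with FN replicates 1 and 3 against MN, and -0.92 without FN replicate 2, and ran from -0.92 to 0.72 when 1 library was left out. Cxcl10 in FT versus FN turned to 1.24 with limma-voom, 1.23 with 9 and 8 libraries, 1.41 with 10 and 1.26 without FN replicate 2, and ran from -1.31 to 1.26 when 1 library was left out. Csf1 in FT versus FN turned to 0.23 without FN replicate 3 and 0.22 without FT replicate 3, within -0.51 to 0.23. Cxcl1 in FT versus FN was -0.13 without FT replicate 3, within -0.13 to 1.70, Cxcl12 in FN versus MN was -0.10 without FN replicate 3, within -0.10 to 0.89, and Il34 in MT versus MN was 0.029 without MN replicate 3.

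Pairing by replicate number was not shown: of 18 same-numbered pairs 5 correlated over 0.1 (range -0.352 to 0.571), and in 5 a library correlated best with its own number. The check used deviations from group means, on which FN replicate 2, FT replicate 2 and FT replicate 3 weigh. It therefore cannot exclude shared days of preparation. With the replicate block 10, 2, 4, 10 and 2 members met the unadjusted criteria and 0 had an adjusted p under 0.05.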

Other observations

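Further members, chosen after their values were seen, differed among single libraries. Cxcl16, which encodes a transmembrane chemokine and scavenger receptor of macrophages and overlaps Zmynd15 on the other strand, was at 1.97, 0.897 and 2.41 CPM in MN, 1.38, 1.81 and 9.14 in MT, 4.02, 3.26 and 4.93 in FN and 7.13, 4.35 and 7.67 in FT, with MT replicate 3 the highest of all libraries and all FN libraries above all MN libraries. Ccl25, a chemokine of thymus and gut, was at 1.83, 2.35 and 2.18 CPM in MN, 3.27, 2.36 and 2.59 in MT, 2.77, 6.92 and 2.19 in FN and 2.19, 1.74 and 4.32 in FT, with every MT library above every MN library by a small margin. Ccl17 was at 2.61 CPM in FN replicate 2 and 1.74 CPM in FT replicate 2 and at most 0.556 CPM in the other 10 libraries.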
